A study of Mus musculus with 8 samples.

Results

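The genes described here are 10 components of transforming growth factor beta (TGF beta) signalling. They are the ligand genes Tgfb1, Tgfb2 and Tgfb3, the receptor genes Tgfbr1, Tgfbr2 and Tgfbr3, the induced matrix protein gene Tgfbi, the Smad genes Smad3 and Smad7, and the antagonist gene Fst. The list was set by gene name, with earlier results of these data known, and every probe carrying one of these symbols was taken. It covered 15 of 25697 probes and 9 of 16593 genes. Smad7 was not analysed here. Expression was measured by microarray in a line of immortalized brown adipocytes from mouse, a fat cell type that makes heat, on 4 arrays of cells given 10 µM of the compound Z16078526 and 4 arrays of cells given its vehicle DMSO. Both groups had been differentiated for 8 days and were exposed for 18 h, and no genotype or transgene is stated for either. The stated question was what the compound does to brown adipocytes. All arrays come from 1 line, and separate cultures are not stated for the samples of either group, so p-values measure the spread between these samples only, which may be technical.

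TGF beta ligands are secreted in a latent form, held in the matrix by binding proteins and released by proteases and integrins. The active ligand binds the type II receptor, which phosphorylates the type I receptor, which in turn phosphorylates Smad2 and Smad3. These move to the nucleus with Smad4 and change transcription of matrix, cytoskeletal and feedback genes. In fat tissue the pathway is known for restraining adipocyte differentiation and for driving matrix deposition.

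In cells treated with Z16078526 the genes for the type II receptor Tgfbr2, the coreceptor Tgfbr3, the ligand Tgfb1, the antagonist Fst and the induced protein Tgfbi had less signal than in DMSO cells. Signals for the type I receptor Tgfbr1 and for the ligand Tgfb2 differed by 0.02 and 0.01 log2 units between the groups and were not called. Of the 15 probes 7 were called, all lower, in a fit where 12.7% of all probes were called (5.92% lower and 6.76% higher). Of the 9 measured genes 5 were called lower and 0 higher in limma, at a Benjamini-Hochberg adjusted p under 0.05 over all probes, each gene being judged by its brightest probe. Over all genes 6.88% were called lower and 7.61% higher. Among the 7895 genes with a mean log2 intensity over 5, as all 9 had, the shares were 14.0% lower and 15.6% higher. The 9 genes had a median log2 difference (Z16078526 minus DMSO) of -0.60, against 0.02 over those 7895 genes. In the same 5 genes the 2 groups of arrays did not overlap, with every treated array lower, as in 9.20% of all genes and 18.6% of the brighter ones. The genes were chosen with earlier results of these data known. These counts, shares and the median therefore describe the list and are no test of it.

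Intensities are the deposited values on a linear scale, and log2 differences were taken after raising values below 16 to 16, which makes 4 the lowest log2 value (the floor). Between 13528 and 13549 probes per treated array and between 13554 and 13564 per DMSO array lay above it. Levels of different probes cannot be set against each other, so no order of abundance among these genes is given. Fat cell markers fitted the label: all 8 lay above the floor, and Adipoq, the adiponectin gene, had a mean log2 intensity of 14.44 in treated and 14.48 in DMSO cells. Ucp1, the uncoupling protein that makes heat, was dim, with mean log2 intensities of 6.25 in treated and 4.87 in DMSO cells. Of 4 macrophage markers Ptprc, Lyz2 and Itgam lay at or below the floor on all arrays and Adgre1 on all but treated 1. Of 7 endothelial markers Cdh5, Kdr, Tie1 and Emcn lay at it on all arrays. Sox18 and Tek lay above it on every DMSO array and no treated array, and Pecam1 on 3 treated arrays and 1 DMSO array. Preadipocyte and fibroblast markers, some of them bright, are given below. In such bulk RNA, fewer cells of a type and less RNA per cell cannot be told apart.

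Tgfb1, the best known of the ligands and the one most often tied to matrix deposition, gave intensities of 338, 311, 331 and 351 in treated cells, against 481, 418, 384 and 501 in DMSO cells. Every treated array was below every DMSO array, and the treated arrays lay closer together (SD 16.6) than the DMSO arrays (SD 54.7). The log2 difference was -0.42 ± 0.09 (SE, n = 4 arrays per group here and below), a 1.34-fold lower signal with a limma adjusted p of 0.0315. This call was lost when any array but DMSO 3 was left out, with limma adjusted p-values of 0.0578 to 0.0894, while the log2 difference stayed between -0.49 and -0.36.

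The other ligand genes were dim. Tgfb2 gave 62.8, 48.8, 79.2 and 74.6 in treated cells and 69.8, 49.2, 60.7 and 84.7 in DMSO cells. The groups overlapped fully, and the log2 difference of 0.01 had a 95% interval of -0.56 to 0.58, so a change of up to about that size in either direction was not detectable. Tgfb3 gave 36.5, 54.7, 37.3 and 70.1 in treated cells, against 73.1, 63.2, 75.4 and 79.9 in DMSO cells. Treated 1 and 3 were the lowest, while treated 4 lay within the DMSO range. Its log2 difference was -0.60 ± 0.25, with an interval of -1.20 to -0.01, and it was not called (limma adjusted p = 0.212). When only probes above the floor on all 8 arrays were fitted, it passed at a limma adjusted p of 0.0452. That filter lowers the number of tests and also changes the variance estimate, with an SE of 0.23. Over 22 other settings the limma adjusted p ranged from 0.0452 to 0.406.

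Tgfbr2, the type II receptor that binds the ligand and starts the signal, gave 1536, 1523, 1479 and 1433 in treated cells, against 2493, 2475, 2370.3 and 2270.2 in DMSO cells. The gap between the groups was several times the spread within either one. Its log2 difference was -0.69 ± 0.04, or 1.61-fold lower, with a limma adjusted p of 0.000524. A second, dim probe of the gene read 17.8 to 28.5 in treated and 20.6 to 46.4 in DMSO cells, with a log2 difference of -0.51 ± 0.28 that was not called. The changes of both probes differed by -0.18 log2 units, with an exact two-sided permutation p of 0.629.

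Tgfbr3, also called betaglycan, is a coreceptor that presents ligand, TGF beta 2 above all, to the type II receptor. It gave 841, 840.0, 940.4 and 758 in treated cells, against 1320.2, 1457, 1238 and 1198 in DMSO cells. Again the groups did not overlap, at a log2 difference of -0.63 ± 0.09, a 1.54-fold lower signal (limma adjusted p = 0.00585). The gene's dimmer probe moved the same way, with 47.4, 15.4, 0.813 and 28.5 in treated and 56.5, 71.2, 81.3 and 79.4 in DMSO cells. It lay above the floor on only 2 treated arrays, so its log2 difference of -1.56 ± 0.39 (limma adjusted p = 0.0460) is measured in part against the floor.

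Tgfbr1, the type I receptor kinase that phosphorylates Smad2 and Smad3, gave 1268, 1278, 1451 and 1431 in treated cells and 1375, 1202, 1342 and 1416 in DMSO cells. The ranges overlapped, and the log2 difference of 0.02 had a 95% interval of -0.14 to 0.19. A decrease of the size seen in Tgfbr2 lies outside that interval. The 3 dimmer probes of Tgfbr1 lay at or near the floor and none was called. Set against each other within arrays, Tgfbr1 and Tgfbr2 changed by amounts that differed by 0.71 log2 units, and Tgfbr1 and Tgfbr3 by 0.65. Each pair gave an exact two-sided permutation p of 0.0286, the smallest that 4 arrays against 4 allow, and 0.0857 after adjustment over 6 pairs of ligands and receptors compared in this way. Tgfbr2 and Tgfbr3 differed by -0.06 (exact permutation p = 0.486). The 3 ligand pairs gave exact permutation p-values of 0.0857 to 0.457. These pairs were chosen after the values had been seen.

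**Figure D1:**
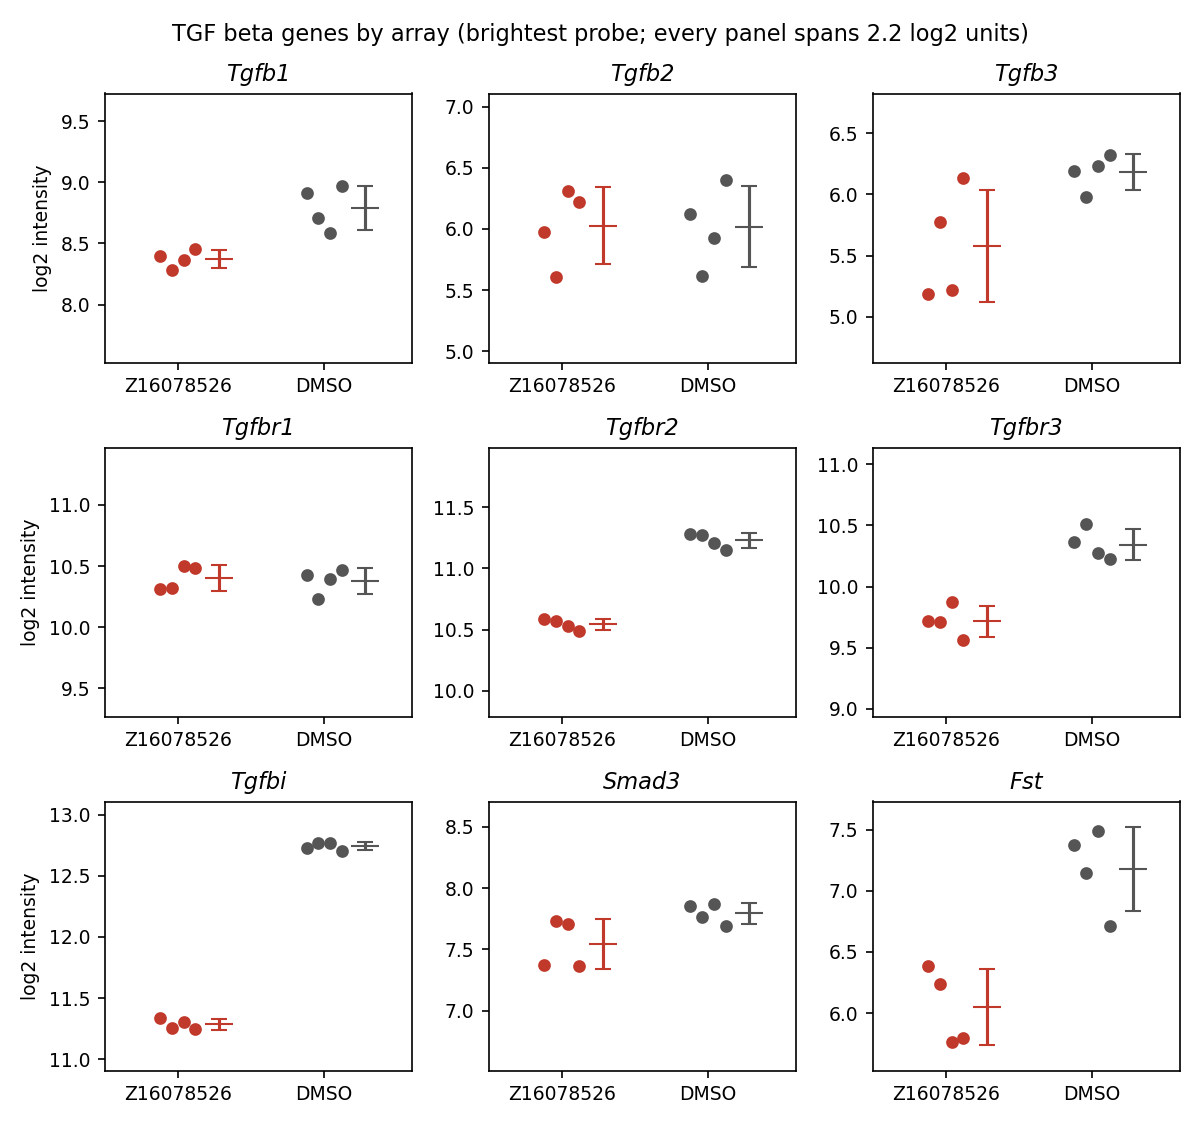
Log2 intensity of the brightest probe of each of 9 TGF beta genes on every array, Z16078526 at the left and DMSO at the right of each panel; points are arrays, and bars are the mean ± SD of 4 arrays. The groups do not overlap in Tgfb1, Tgfbr2, Tgfbr3, Tgfbi and Fst, and overlap in the others.

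Tgfbi encodes a secreted matrix protein that was first found as a gene induced by TGF beta, and it showed the largest and tightest change of the 9 genes. Its brightest probe gave 2595, 2439.6, 2535 and 2431 in treated cells, against 6772, 6962, 6982 and 6659 in DMSO cells. Within each group the arrays lay within a few percent of one another. The log2 difference was -1.45 ± 0.03, or 2.74-fold lower (limma adjusted p = 1.4e-05). A second probe gave 424, 345, 294 and 326 in treated cells, against 1125, 1248, 1201 and 1136 in DMSO cells, with a log2 difference of -1.77 ± 0.11, or 3.42-fold lower (limma adjusted p = 0.000596). Both probes thus placed every treated array far below every DMSO array. Their changes differed by 0.32 log2 units, with an exact permutation p of 0.0286, the smallest possible here, and 0.0571 after adjustment over the 2 probe pairs tested.

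Smad3, a receptor-activated transcription factor of the pathway, gave 166, 212, 209 and 164 in treated cells and 231, 217, 234 and 206 in DMSO cells. Treated 1 and 4 lay below all DMSO arrays, while treated 2 and 3 lay within their range. The log2 difference was -0.25 ± 0.11 and was not called (limma adjusted p = 0.228). It stayed uncalled in all 22 other settings, at 0.118 to 0.439.

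Fst encodes follistatin, a secreted protein that binds activins and keeps them from their receptors. It was the only antagonist among the 9 genes. Intensities were 83.5, 75.6, 54.4 and 55.7 in treated cells, against 166, 141, 179.6 and 105 in DMSO cells. Every treated array lay below the lowest DMSO array, DMSO 4, although both groups spread widely at this low signal. The log2 difference was -1.13 ± 0.23, or 2.19-fold lower (limma adjusted p = 0.0223). The call was lost without DMSO 1, 2 or 3 or without treated 2, 3 or 4, at limma adjusted p-values of 0.0512 to 0.0709, with a log2 difference between -1.29 and -1.03 over all arrays left out in turn.

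**Figure D2:**
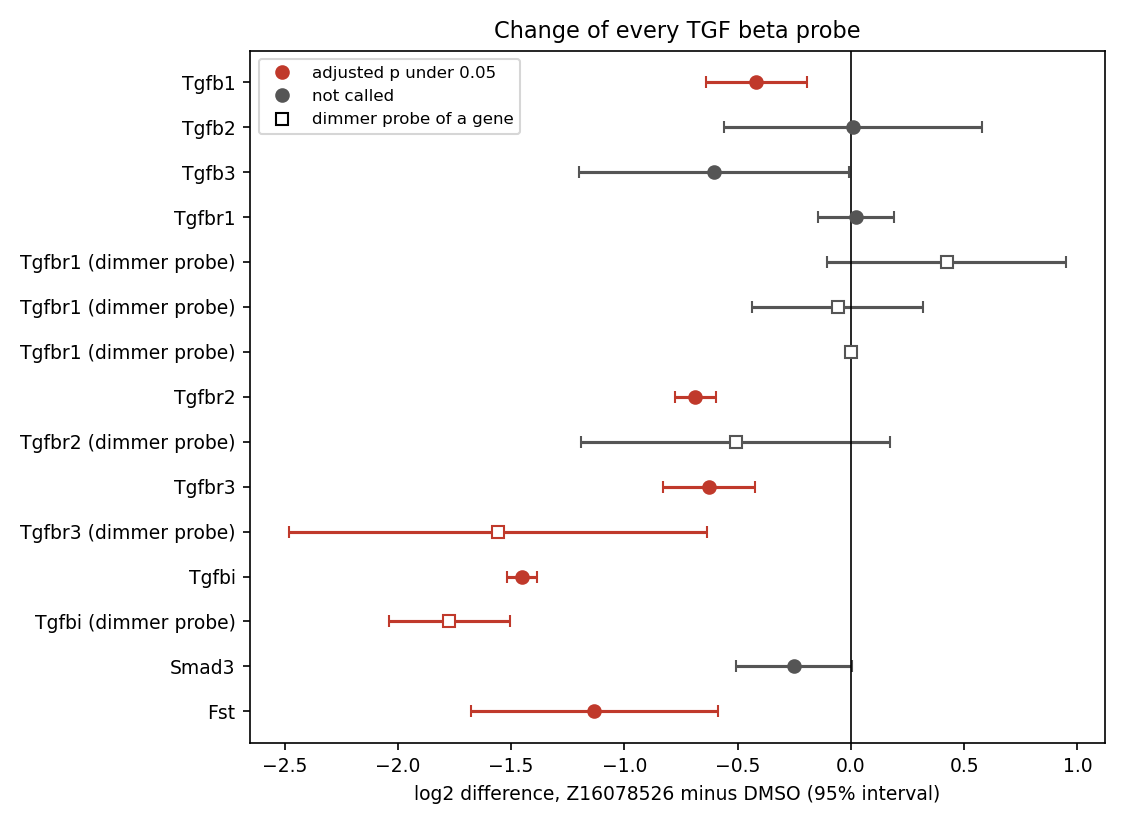
Log2 difference, Z16078526 minus DMSO, of all 15 TGF beta probes with the 95% interval of the fit; filled circles are each gene's brightest probe, open squares its dimmer probes, and red marks an adjusted p under 0.05. Both probes of Tgfbi and of Tgfbr3 lie left of 0, and the bright probe of Tgfbr1 lies at 0.02.

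Promoters are shown for the 3 called genes that the RefSeq promoter table holds (Tgfbi, Tgfbr2 and Tgfb1) and for the receptor gene Tgfbr1, whose bright probe was not called. Each is the 250 bases before the start of the gene in RefSeq's GRCm38.p6, 5′ to 3′ on the gene's own strand, outside its transcribed part. Capitals mark CAGAC, the short letters that Smad proteins are known to bind, or GTCTG, the same letters on the other strand. The stretches lie at chr13:56609336-56609585, plus strand, for Tgfbi, at chr9:116175364-116175613, minus strand, for Tgfbr2, at chr7:25686752-25687001, plus strand, for Tgfb1, and at chr4:47352972-47353221, plus strand, for the first of 2 listed starts of Tgfbr1.
Tgfbi: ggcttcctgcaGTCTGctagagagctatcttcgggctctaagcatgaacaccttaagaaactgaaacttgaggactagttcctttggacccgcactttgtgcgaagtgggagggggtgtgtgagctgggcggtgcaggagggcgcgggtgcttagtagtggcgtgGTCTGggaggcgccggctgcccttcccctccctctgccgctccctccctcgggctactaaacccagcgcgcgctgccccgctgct
Tgfbr2: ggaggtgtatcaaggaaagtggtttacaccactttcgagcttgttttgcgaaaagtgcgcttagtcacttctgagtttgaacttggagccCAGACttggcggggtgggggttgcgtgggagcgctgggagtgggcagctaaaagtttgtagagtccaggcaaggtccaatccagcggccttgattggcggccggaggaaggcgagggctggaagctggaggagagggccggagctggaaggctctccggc
Tgfb1: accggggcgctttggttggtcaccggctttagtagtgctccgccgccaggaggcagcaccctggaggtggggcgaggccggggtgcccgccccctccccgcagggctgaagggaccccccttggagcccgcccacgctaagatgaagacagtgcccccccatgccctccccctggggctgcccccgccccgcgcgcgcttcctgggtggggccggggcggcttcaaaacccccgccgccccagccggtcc
Tgfbr1: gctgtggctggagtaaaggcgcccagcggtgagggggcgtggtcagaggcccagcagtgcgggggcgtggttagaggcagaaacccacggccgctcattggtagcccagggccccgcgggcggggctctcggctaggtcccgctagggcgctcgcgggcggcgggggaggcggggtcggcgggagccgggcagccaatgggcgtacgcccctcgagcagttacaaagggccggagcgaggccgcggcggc
Tgfbi held 2 matches, which begin 239 and 85 bases before the start, and Tgfbr2 held 1, at 160 bases. Neither Tgfb1 nor this start of Tgfbr1 held one. Among promoters not shown, the other start of Tgfbr1 held 1, at 203 bases. The uncalled Tgfb2 held 2, at 221 and 204 bases, and the uncalled Smad3 held 0, so matches did not separate called from uncalled genes. Of 7 promoters listed for 6 of the genes, 4 held at least 1 match, against 42.2% of 32851 promoters of the same length in the table. A match of 5 letters is a description and shows no binding. In G and C content the stretches of Tgfb1 (75.2%) and Tgfbr1 (74.8%) lay above those of Tgfbi (62.4%) and Tgfbr2 (58.4%), against a median of 52.4% over the table.

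Beyond these genes, 6 lists of the wider pathway were examined by each gene's brightest probe. Of 141 measured genes in their union, without the 9 above, 29 (20.6%) were called lower and 7 (4.96%) higher, where the shares over all genes were 6.88% and 7.61%. The union held 79 genes with a mean log2 over 5, of which 28 were lower and 7 higher, with a median log2 difference of -0.32. Some genes stand in more than 1 list, so the counts per list below do not add up to those of the union. These lists too were chosen with earlier results of these data known, so their shares are descriptions and no test of the pathway.

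Most other ligand genes of the superfamily were not seen: 14 of 26 lay at the floor on all arrays. Inhbb, which encodes the beta B subunit of activins and inhibins, was the 1 called (3.85% of the list, against 6.88% of all genes called lower). It gave 357, 354, 293 and 257 in treated cells, against 809, 916, 893 and 800.1 in DMSO cells, a log2 difference of -1.45 ± 0.12 (limma adjusted p = 0.00106). Fst and Inhbb, an activin antagonist and an activin subunit, thus both had less signal in treated cells. Among 16 receptor and coreceptor genes, 2 (12.5%) were lower and 1 (6.25%) higher, against 6.88% and 7.61% over all genes. Rgma, a coreceptor for bone morphogenetic proteins, had a log2 difference of -0.76 ± 0.12 and Acvr1, a type I receptor for them, of -0.34 ± 0.06. Acvr1c, the type I receptor ALK7 found on fat cells, was 1.26-fold higher, with 563, 588, 661 and 574 in treated cells and 481, 497, 480.1 and 439 in DMSO cells. Its limma adjusted p of 0.0177 became 0.0517 without treated 2.

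Of 20 genes for storing and activating latent TGF beta, 7 (35%) were lower and 0 higher, against 6.88% and 7.61% over all genes. Of the 12 with a mean log2 over 5, 7 were lower, where 14.0% of all such genes were. Furin, the protease that cuts the ligand precursor, gave 2286, 2231, 2119 and 2297 in treated cells, against 4542, 4857, 4116 and 3884 in DMSO cells. That is a 1.94-fold lower signal (log2 difference -0.96 ± 0.07, limma adjusted p = 0.000878). Its 2 dimmer probes were not called, at log2 differences of -1.18 and, next to the floor, -0.0020. Ltbp3, a latent TGF beta binding protein, was 1.71-fold lower, at mean intensities of 3386 ± 205 in treated and 5807 ± 388 in DMSO cells (SD), and a dimmer probe of it was lower too. The integrin subunit gene Itgb5 had a log2 difference of -0.44 and the gelatinase gene Mmp2 of -0.59. Mmp2 lost its call without DMSO 1 or without treated 2, at limma adjusted p-values up to 0.0514. Ltbp1, a second binding protein, had a log2 difference of 0.02 and was not called. It was named after its value had been seen.

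Of 21 genes for secreted antagonists and ligand-binding proteins, 6 (28.6%) were lower and 0 higher, against 6.88% and 7.61% over all genes. Of the 11 with a mean log2 over 5, 6 were lower, where 14.0% of all such genes were. Vasn, a membrane and secreted protein that traps TGF beta, was 1.69-fold lower, and the proteoglycan gene Bgn was 1.46-fold lower. Htra1 and Htra3, genes of secreted serine proteases that have been described as inhibitors of TGF beta family signals, were 2.04-fold and 1.55-fold lower (limma adjusted p-values of 0.00257 and 0.00380). A second, bright probe of Htra1 had a log2 difference of -0.87 and was called. A dim probe of Htra3 had one of -0.10, and with the mean of both probes Htra3 was not called (-0.36, limma adjusted p = 0.434). The other called genes of this list were Bmper and Dcn.

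Of 27 intracellular regulators, 5 (18.5%) were higher and 3 (11.1%) lower, against 7.61% and 6.88% over all genes. Of the 19 with a mean log2 over 5, 5 were higher and 2 lower, where 15.6% and 14.0% of all such genes were. Smurf1, a ubiquitin ligase that marks receptors and Smads for removal, gave 194, 211, 223 and 217 in treated cells, against 117, 116, 117 and 117 in DMSO cells. That is 1.81-fold higher (log2 difference 0.85 ± 0.05, limma adjusted p = 0.000525), and no treated array came near the DMSO range. Wwp1, a ligase of the same family, was higher by 0.54 log2 units, and Smad2, which carries the same signal as Smad3, by 0.35 ± 0.04. Map3k7, the kinase TAK1, was higher by 1.00 ± 0.19. Its call was lost without DMSO 1, 2 or 3 or without treated 2 (limma adjusted p up to 0.0608). Tgif1, a corepressor of Smads, was higher by 0.33 on its brightest probe, but its other 2 probes had differences of -0.48 and -0.06. The call was lost without DMSO 1 or 4 or without treated 1, 2 or 3 (limma adjusted p up to 0.0696).

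Lower regulators were Rnf111, Fkbp1a and Tgfbrap1. Rnf111 encodes the ligase Arkadia, which removes pathway inhibitors, and gave 11.3, 6.61, 14.3 and 20.7 in treated cells, against 49.2, 56.5, 54.5 and 55.4 in DMSO cells. It lay above the floor on only 1 treated array, so its log2 difference of -1.66 is measured largely against the floor, and its other 2 probes lay at the floor in both groups. Fkbp1a, whose protein binds the type I receptor, was lower by a log2 difference of -0.50, and the receptor-associated gene Tgfbrap1 by -0.48. Tgfbrap1 lost its call without DMSO 1 or without treated 2 (limma adjusted p up to 0.0537). Smad4, the shared partner of the Smads, had a difference of 0.05 and was not called. It was named after its value had been seen.

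Target genes of TGF beta were lower in 12 of 37 cases (32.4%) and higher in 2 (5.41%), Ccn1 and Tgif1. Over all genes the shares were 6.88% and 7.61%. Of the 31 targets with a mean log2 over 5, 12 were lower and 2 higher, where 14.0% and 15.6% of all such genes were. Timp3, an inhibitor of matrix proteases, gave 294, 301, 290 and 341 in treated cells, against 639, 552, 673 and 638 in DMSO cells, or 2.04-fold lower (limma adjusted p = 0.000857). A second probe of Timp3, above the floor on 2 DMSO arrays only, had a log2 difference of -0.26 and was not called, and the mean of both probes gave -0.64 (limma adjusted p = 0.0133). The collagen genes Col5a1 and Col4a1 were each 1.49-fold lower. The other targets called lower were Bgn, Itgb5, Acta2, Eln, Snai1, Timp1, Cdkn1a, Lox and Col3a1. Their log2 differences ran from -2.07 (Eln, dim in treated cells at 16.2 to 38.2) to -0.35 (Cdkn1a). Ccn1, a matricellular protein gene, was 1.82-fold higher, with 582, 654, 850 and 716 in treated cells and 329, 431, 452 and 329 in DMSO cells. Its limma adjusted p of 0.0169 became 0.0505 without DMSO 1, and of its dimmer probes 1 was called (log2 difference 1.30) and 1 was not (0.39). Ccn2 (log2 difference -0.18), Col1a1 (-0.32) and Skil (0.14), often used as readouts, were not called (limma adjusted p-values of 0.806, 0.212 and 0.0579). Their 95% intervals were -0.65 to 0.29 for Ccn2, -0.64 to -0.0039 for Col1a1 and 0.05 to 0.23 for Skil, and every treated array of Skil lay above every DMSO array. These 3 were named after their values had been seen. Of these targets Bgn and Itgb5, among others, also stand in other lists.

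**Figure D3:**
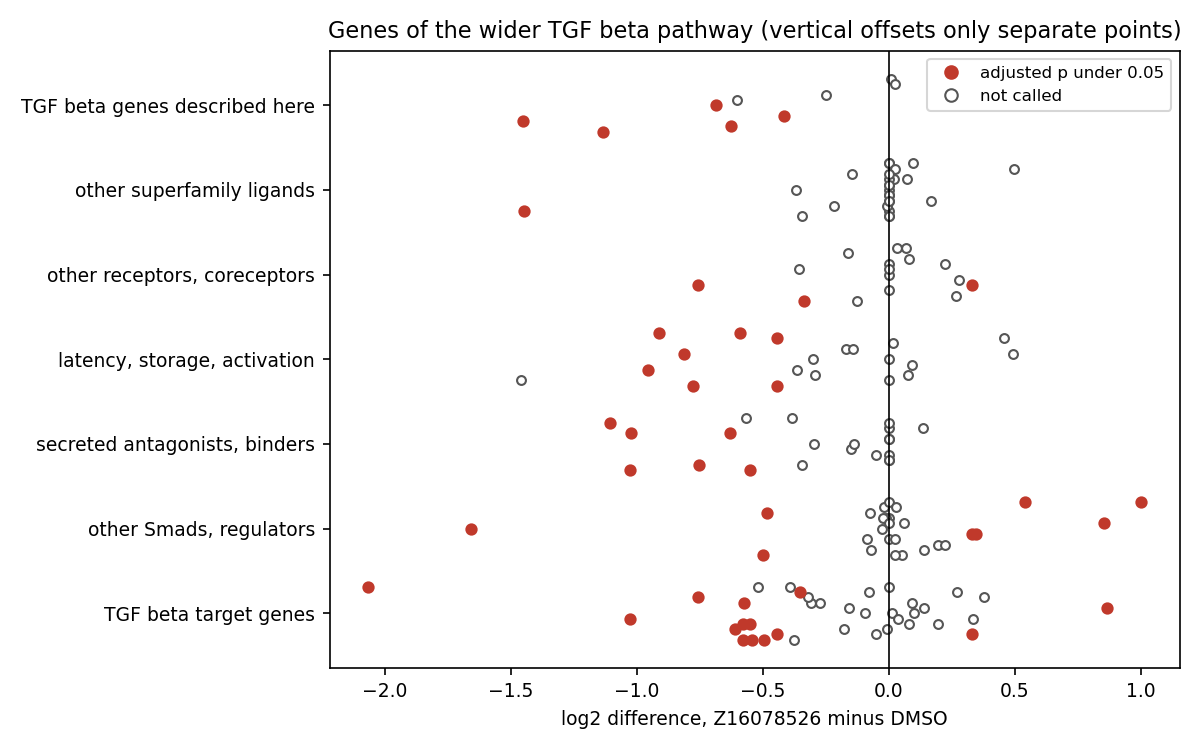
Log2 difference, Z16078526 minus DMSO, of each measured gene (brightest probe) in the 9 TGF beta genes and 6 lists of the wider pathway; red points have an adjusted p under 0.05, and open points were not called. The called genes lie left of 0 in the storage and antagonist lists (7 and 6 genes), and among the intracellular regulators 5 lie right and 3 left of 0.

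Markers of other cells were read beside these results, with intensities below 16 raised to 16 before they were summed. The sum over 11 preadipocyte and fibroblast markers was 9071 to 12461 per treated array, against 14266 to 16375 per DMSO array. Of these 11, Dcn and Vim were lower, none was higher, and Thy1, Dpp4, Pi16 and Lum lay at the floor on all arrays. Pdgfra, Pdgfrb, Dlk1, Col1a1 and Cd34 were not called. Vim made up the largest part of the sum and of its difference, with mean intensities of 6062 in treated and 9320 in DMSO cells. Summed over 6 smooth muscle and myofibroblast markers the intensity was 4906 to 5980 in treated and 7461 to 8276 in DMSO arrays, nearly all of it from Acta2, which was lower as was Actg2, while Rgs5 lay at the floor throughout. The 8 fat cell markers summed to 74842 to 79744 in treated and 74894 to 78158 in DMSO arrays, with Cidea, Fabp4, Cidec and Ucp1 called higher and Pparg lower. Most of this sum came from Lpl and Adipoq, which, like Plin1, were not called. The 7 endothelial markers, which would sum to 112 with all at the floor, gave 112.0 to 126 in treated and 153 to 161 in DMSO arrays, with Sox18 and Tek called lower and both at the floor on all treated arrays. The part of these markers in the lower signals of the TGF beta genes was not tested.

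The genes whose pattern over the 8 arrays was most like that of Tgfbi were C4b, Orm1, Inhbb, Hp and Ly6c1. Likeness was the root mean square distance between log2 profiles centred on their means, and these 5 of 7852 genes lay at 0.113 to 0.146 log2 units. Their log2 differences ran from -1.62 (Hp) to -1.27 (Orm1). Closest to Tgfb1 were Tkt, Rcan3, Serpinf1, Ubl7 and Ddost, at distances of 0.0454 to 0.0655 and with log2 differences from -0.47 to -0.43. Such distances mostly reflect the shift between the groups.

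**Figure D4:**
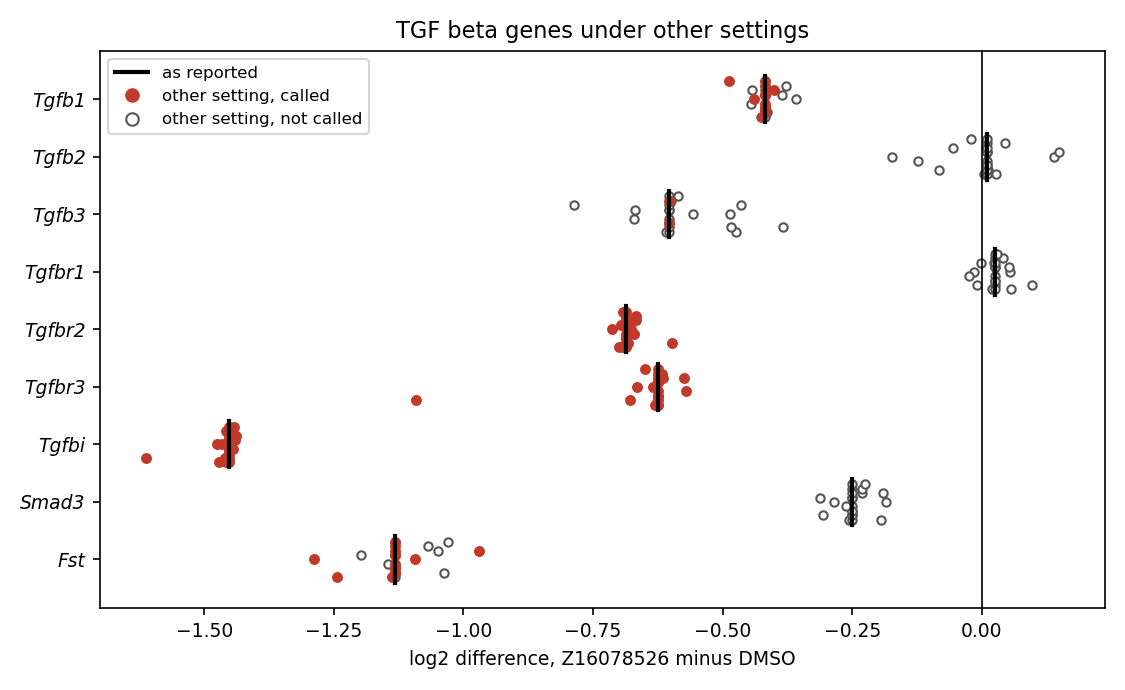
Log2 difference, Z16078526 minus DMSO, of the 9 TGF beta genes as reported (black bar) and under 22 other settings (points); red points were called and open points were not. Tgfbi, Tgfbr2 and Tgfbr3 are called at every point, Tgfb1 and Fst at some, and Tgfb3 at 2.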

How the data were processed

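The values are the intensities of 25697 probes on 8 arrays, in a table that the authors deposited. GenomeStudio is named in the submitters' processing notes, with no version. Its settings and the genome build were not given in the sources used here. Deposited intensities went below 0 in 28.28% to 28.44% of the probes of an array, and all arrays shared an upper quartile of 307.989, as background subtraction and between-array normalization leave them. Probe names came from the platform annotation, in which 23978 probes had 1 gene symbol and 1719 had none, and RefSeq gene identifiers changed 0 symbols.

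Intensities were raised to at least 16 and log2-transformed. All 25697 probes were fitted with limma 3.58.1 in R 4.3.3 (lmFit, eBayes with trend, two-sided, group as the only term), with Benjamini-Hochberg adjustment over all probes. A gene was counted by its probe of highest mean intensity, at an adjusted p under 0.05. Genes were named by a rule: the 10 genes listed, up to 4 called genes per direction with the smallest p in each pathway list, and 5 profile neighbours each of Tgfbi and Tgfb1. The member genes and lists were chosen with earlier results of these data known. The fit was tested on simulated data. Same-numbered samples did not deviate together (correlations of -0.175 to 0.0984), so the numbers were not taken as pairs. Precision is limited by 4 arrays per group. Treated arrays were less alike than DMSO arrays, with log2 intensities correlated at 0.979 to 0.990 and 0.992 to 0.994 within the groups. The main fit takes the same variance for both groups. Other settings concerned scaling, floor, filters, variance model, probe summary, threshold and arrays left out.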

Additional observations from a re-analysis of the deposited data

Results flagged for a closer look

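In 4 of 78 groups of 4 arrays tested, 1 array stood apart from the other 3 by Dixon's test, which flags about 1 in 20 by chance. A dim probe of Tgfbr1 read 22.1 on treated 1 and 0.340 to 8.32 on the other treated arrays, so that 1 array alone lay above the floor (gap over range 1). Rnf111 likewise read 20.7 on treated 4 and 6.61 to 14.3 on the others (gap over range 1). In both cases the other 3 arrays are equal once raised to the floor, so a ratio of 1 was fixed by the floor. The unfloored values printed here do not give it. Rgma read 119.8 on treated 3, against 94.7 to 97.4 on the others (0.881). Vasn read 4351 on DMSO 1, against 3827 to 3880.3 on the others (0.893).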

How the results depend on the processing

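Over 22 other settings Tgfbi, Tgfbr2 and Tgfbr3 stayed called lower, with highest limma adjusted p-values of 0.0119, 0.0396 and 0.0462. The SE depended on the variance model. For Tgfbi it was 0.028 as reported, 0.053 with only probes above the floor on all 8 arrays, and 0.064 with robust variance. For Tgfbr2 these values were 0.037, 0.064 and 0.077. Tgfb1 was called in 13 settings and Fst in 15, with adjusted p ranges of 0.00535 to 0.0894 and 0.000309 to 0.0772, and both always lower. Tgfb3 was called only with the filters on dim probes (0.0484 and 0.0452), which reduce the probes tested and also change the variance estimate. With the replicate number as a block, counts fell to 1196 probes, 3 member genes lower (Tgfb1 at 0.0675 and Fst at 0.0772 lost), and 16 other pathway genes lower and 4 higher, against 3258, 5, 29 and 7. The numbers were not shown to pair the samples. Of 24 named pathway genes, 17 lost their call under at least 1 setting. Among them were Rgma, Acvr1, Itgb5 and Smad2 with this block, at limma adjusted p-values of 0.0790, 0.0813, 0.0730 and 0.0526. Requiring a change of over 1.5-fold left 1251 probes, with 17 other pathway genes lower and 3 higher. Keeping probes above the floor on at least 4 arrays gave 4994. Leaving out each array in turn gave 2068 to 3311 probes, 3 to 4 member genes lower and 0 higher, and 21 to 28 other pathway genes lower and 4 to 7 higher. The fewest probes came without treated 2 (2068) and DMSO 1 (2154). The log2 difference of Tgif1 turned to -0.071 when all its probes were averaged, and a floor of 50 ended the call of Rnf111 (-0.11, adjusted p = 0.149), since both groups then lie near the floor. A covariate for the first component of the spread within groups, which set treated 1 against treated 3 and was added after seeing the data, changed no call among the member genes. Scaling and second normalization changed none either. Signal near the floor limits Tgfb2, Tgfb3 and the dim probes.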
